A study of Mus musculus with 5 samples.

Results

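The set comprised 9 genes that damp bone morphogenetic protein (BMP) signalling or respond to it, followed here in mouse pluripotent cells: the inhibitory Smads Smad6 and Smad7, the decoy receptor Bambi, the ubiquitin ligases Smurf1 and Smurf2, the homeobox genes Msx1 and Msx2, the bHLH factor Atoh8 and the leucine zipper factor Tsc22d1. They were chosen by gene symbol, and all 9 were found among the 23951 genes of the deposited table. Expression had been measured by RNA sequencing in 5 libraries, each the only library of its group. There were 3 libraries of epiblast stem cells derived from embryonic stem cells (ESD-EpiSCs, here EpiSCs), grown in N2B27 medium with FGF2 at 12 ng/ml and Activin A at 20 ng/ml on serum-coated plates: an untreated library, a library exposed to BMP-4 for 1.5 h (10 ng/ml) and a library exposed to the same dose for 24 h. The other libraries came from E14 embryonic stem cells (ESCs), held in LIF with BMP-4 at 10 ng/ml in a basal medium, or in LIF at 1000 U/ml with 15% fetal bovine serum. The labels name E14 as the source of the EpiSCs too, so the data describe this line alone.

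BMP ligands bind paired type I and type II receptors, which phosphorylate receptor Smads; these join Smad4, enter the nucleus and bind DNA. SMAD6 and SMAD7 are induced by the pathway in many cell types and block receptors or receptor Smads, BAMBI is a receptor-like membrane protein that lacks a kinase, and the SMURF proteins mark Smads and receptors for degradation. Msx1 and Msx2 are homeobox targets of BMP signalling in the embryo, and in the mouse epiblast BMP signals help to set up the posterior primitive streak.

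With 1 library a group, no difference could be tested against replicate error, and p-values are not given. Each value is in FPKM (fragments scaled to transcript length and to the number of mapped fragments) with the 95% bounds deposited beside it. Differences are of log2(FPKM + 1), which makes differences of low genes look smaller, and "higher" or "lower" as a call means at least 2-fold on that scale. Calls were made over the 11011 genes whose FPKM averaged 1 or more across the 5 libraries. Of the 9 genes 8 passed that mean; Atoh8 did not, and Smad6, Msx1 and Msx2 passed it only through their values in BMP-4-treated EpiSCs, averaging 0.741, 0.667 and 0.665 FPKM over the other 3 libraries. Depth, estimated from the steps that whole reads leave in low values, was lowest in ESCs with serum and highest in EpiSCs at 24 h, at about 8500000 and 13300000 reads. Naive markers (Zfp42, Esrrb, Nr0b1, Tbx3 and Tfcp2l1) summed to 1.59 to 2.93 FPKM in EpiSC libraries. In ESC libraries they summed to 1426 to 1642 FPKM. Primed markers (Fgf5, Otx2, Dnmt3b, Pou3f1 and Zic2) summed to 632 FPKM in untreated EpiSCs, 566 after 1.5 h and 397 after 24 h. Their sum in ESC libraries was 61.7 to 69.5 FPKM. Fibroblast markers summed to 1.27 to 2.03 FPKM in EpiSC libraries and 0.143 to 0.205 FPKM in ESC libraries, with Dcn listed at 0 in all 5.

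The start regions of the 3 genes called higher after 24 h of BMP-4 are shown with that of Smurf2, whose level stayed within 2-fold in every comparison. Smurf1 also stayed within 2-fold in every comparison, and its window is described without being shown. RefSeq promoters (build GRCm38.p6) were at hand for 7 of the 9 genes. Each sequence holds the 250 bases before an annotated start, and capitals mark GGCGCC, the GC-rich element known from BMP targets, CAGAC, a Smad-binding element, and CCAAT, a general promoter box, on either strand. CCAAT was added to the search after the promoters had been read.
Smad6, chr9:64022060-64022309, minus strand: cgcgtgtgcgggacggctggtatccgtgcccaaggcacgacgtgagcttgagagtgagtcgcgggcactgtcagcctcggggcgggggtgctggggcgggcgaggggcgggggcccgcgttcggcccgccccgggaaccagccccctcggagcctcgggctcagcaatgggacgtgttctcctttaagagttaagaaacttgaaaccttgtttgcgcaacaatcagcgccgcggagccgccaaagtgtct
Msx1, chr5:37824586-37824835, minus strand: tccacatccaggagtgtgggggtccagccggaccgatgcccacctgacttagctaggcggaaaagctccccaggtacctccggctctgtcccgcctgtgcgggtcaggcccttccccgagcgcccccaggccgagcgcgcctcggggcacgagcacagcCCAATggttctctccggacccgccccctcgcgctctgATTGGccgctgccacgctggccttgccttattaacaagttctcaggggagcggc
Msx2, chr13:53472781-53473030, minus strand: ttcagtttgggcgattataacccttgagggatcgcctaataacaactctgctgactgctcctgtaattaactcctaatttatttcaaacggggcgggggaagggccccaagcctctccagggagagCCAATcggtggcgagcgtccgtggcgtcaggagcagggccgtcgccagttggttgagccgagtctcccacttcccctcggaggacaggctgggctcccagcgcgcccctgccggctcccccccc
Smurf2, chr11:106920716-106920965, minus strand: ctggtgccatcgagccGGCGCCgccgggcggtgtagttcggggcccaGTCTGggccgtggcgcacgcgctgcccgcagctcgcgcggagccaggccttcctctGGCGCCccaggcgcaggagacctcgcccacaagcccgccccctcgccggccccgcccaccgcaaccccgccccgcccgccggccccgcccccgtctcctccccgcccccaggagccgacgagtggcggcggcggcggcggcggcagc
Neither GGCGCC nor CAGAC occurred in the windows of Smad6, Msx1 and Msx2. Smurf2 held GGCGCC at 2 positions and CAGAC at 1. Atoh8 held neither, and Smurf1 held CAGAC at 2 positions and no GGCGCC. The windows differed in GC content. It was 66.8% for Smad6, 68% for Msx1, 61.6% for Msx2, 82% for Smurf2, 74.8% for Smurf1 and 63.2% for Atoh8. Tsc22d1 had 5 annotated starts. It held GGCGCC at 1 position before start 2 and at 3 before start 5, and CAGAC at 1 before each of starts 3 and 4. Over the 32851 RefSeq windows of that length, 9.59% held GGCGCC and 42.2% held CAGAC. The composite BMP-responsive element, in which a Smad element follows GGCGCC at a fixed distance, was searched as well and was in 0.07% of all windows and in none of the 11 windows of these genes. CCAAT stood at 2 positions before Msx1, at 1 before Msx2 and at 1 before each of starts 4 and 5 of Tsc22d1. It was in 33.8% of all windows. The palindromic Smad element GTCTAGAC, also added after the promoters had been read, lay across the annotated start of Smad6, with 4 bases before it and 4 after it, and is shown in capitals within 30 bases.
Smad6 start, chr9:64022045-64022074, minus strand: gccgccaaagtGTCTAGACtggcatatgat
Of all windows extended to 300 bases, 50 of them after the start, 0.213% held GTCTAGAC, and Smad6 was the only member of the set with it among 11 windows. These matches are descriptions of sequence, not sites of binding.

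Of the inhibitory Smads, Smad6 (mm9 chromosome 9, 63800883 to 63869866), which acts mainly on BMP receptors and Smads, was low in untreated EpiSCs and stood higher at each time of BMP-4. It measured 0.85 FPKM (0 to 1.99) in untreated EpiSCs, 1.89 (0 to 3.98) after 1.5 h and 3.35 (0.0734 to 6.63) after 24 h. ESCs in LIF and BMP-4 had 0.823 FPKM (0 to 1.94) and ESCs in LIF and serum 0.55 (0 to 1.34). The 24 h library was thus the highest of the 5 and the ESC library with serum the lowest, with overlapping bounds between all neighbours in that order. The level after 24 h was 2.35-fold that of untreated EpiSCs on the FPKM + 1 scale, a log2 difference of 1.23 and a plain FPKM ratio of 3.94. After 1.5 h the log2 difference was 0.64, under the 2-fold line, although the plain ratio was 2.22. The values rest on about 25 reads untreated, 61 after 1.5 h and 133 after 24 h. In bulk RNA such as this, fewer cells of a type and less RNA per cell cannot be told apart.

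Smad7 (chromosome 18, 75527019 to 75555588), which blocks both the BMP and the Activin branch, was the more abundant inhibitory Smad in every library. It stood at 20.2 FPKM (8.77 to 31.6) in untreated EpiSCs, 25.3 (11.5 to 39.0) after 1.5 h and 22.0 (9.77 to 34.3) after 24 h. In ESCs it was 15.7 FPKM (6.33 to 25.0) with BMP-4 and 19.3 (8.23 to 30.3) with serum. Its highest value was at 1.5 h, but the whole range over the 5 libraries lay within 2-fold and the bounds of all libraries overlapped. The log2 difference from untreated EpiSCs was 0.31 after 1.5 h and 0.12 after 24 h, and that of 24 h from 1.5 h was -0.19. Per length, the FPKM ratio of Smad7 to Smad6 was 23.8 in untreated EpiSCs, 13.4 after 1.5 h and 6.58 after 24 h, against 19 in ESCs with BMP-4 and 35.1 with serum.

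Bambi (chromosome 18, 3507955 to 3516402), which encodes a decoy for type I receptors, differed by 2-fold between the cell states and by less between the BMP-4 times. It measured 6.57 FPKM (1.96 to 11.2) in untreated EpiSCs, 6.44 (1.90 to 10.97) after 1.5 h and 7.92 (2.60 to 13.2) after 24 h. ESCs held 1.63 FPKM (0.012 to 3.24) with BMP-4 and 1.19 (0 to 2.51) with serum. All 3 EpiSC libraries were above both ESC libraries. Bounds were apart between the 24 h library and ESCs with serum, and overlapped in every other pair. The log2 difference of 24 h from untreated EpiSCs was 0.24. The pseudogene Bambi-ps1, which can share reads with Bambi, was between 0.187 and 0.481 FPKM in the EpiSC libraries, listed at 0 in ESCs with BMP-4 and at 0.108 FPKM in ESCs with serum.

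The Smurf genes encode HECT ubiquitin ligases that tag Smads and receptors, and neither differed by 2-fold between any of the libraries compared. Smurf1 (chromosome 5, 145637364 to 145726699) stood at 8.83 FPKM (3.11 to 14.6) in untreated EpiSCs, 9.44 (3.06 to 15.8) after 1.5 h and 8.82 (3.10 to 14.5) after 24 h. ESCs had 12.5 FPKM (4.56 to 20.5) with BMP-4 and 9.06 (3.22 to 14.9) with serum, so that the highest of the 5 values was in ESCs. Smurf2 (chromosome 11, 106681378 to 106782029) stood at 12.7 FPKM (5.06 to 20.3) in untreated EpiSCs, 13.5 (5.50 to 21.6) after 1.5 h and 14.5 (5.96 to 23.0) after 24 h. In ESCs Smurf2 was 9.16 FPKM (3.12 to 15.2) with BMP-4 and 8.92 (3.07 to 14.8) with serum, below each EpiSC library. Per length, the FPKM ratio of Smurf2 to Smurf1 was 1.44, 1.43 and 1.64 in the EpiSC libraries in order of time, against 0.732 in ESCs with BMP-4 and 0.985 with serum. The bounds of every library overlapped for both genes.

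Msx2 and Msx1, homeodomain factors that mark BMP-exposed tissues in the embryo, had the largest differences of the 9 genes in BMP-4-treated EpiSCs. Msx2 (chromosome 13, 53562250 to 53568149) measured 1.25 FPKM (0 to 2.93) in untreated EpiSCs, 3.79 (0 to 7.61) after 1.5 h and 8.88 (1.70 to 16.1) after 24 h. ESCs held 0.635 FPKM (0 to 1.58) with BMP-4 and 0.111 (0 to 0.36) with serum. The log2 difference from untreated EpiSCs was 1.09 after 1.5 h and 2.13 after 24 h, or plain FPKM ratios of 3.03 and 7.10. Bounds were apart between the 24 h library and either ESC library, and overlapped within the EpiSC libraries. About 30 reads untreated, 102 after 1.5 h and 291 after 24 h stand behind these values, against about 14 in ESCs with BMP-4 and 2 with serum.

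Msx1 (chromosome 5, 38211730 to 38215824) measured 1.64 FPKM (0 to 4.54) in untreated EpiSCs, 3.86 (0 to 9.38) after 1.5 h and 11.2 (0 to 23.9) after 24 h. It stood at 0.24 FPKM (0 to 0.925) in ESCs with BMP-4 and 0.126 (0 to 0.507) with serum. The order of the 5 libraries was the same as for Msx2, with the 24 h library highest and ESCs with serum lowest. The log2 difference from untreated EpiSCs was 0.88 after 1.5 h, short of the 2-fold line, and 2.21 after 24 h, with plain ratios of 2.36 and 6.84. Its lower bound was 0 in all 5 libraries, even though the 24 h value corresponds to about 289 reads. That number is derived from the FPKM, and these reads cannot be told apart from those of the overlapping gene described next.

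The table lists Msx1os, the antisense gene of Msx1, at the same span as Msx1. Msx1os stood at 3.89 FPKM (0 to 8.37) in untreated EpiSCs, 9.05 (0.981 to 17.1) after 1.5 h and 26.6 (7.44 to 45.7) after 24 h, and at 0.627 FPKM in ESCs with BMP-4 and 0.274 with serum. Its ratio to Msx1 was 2.38, 2.35 and 2.38 in the EpiSC libraries in order of time, and 2.61 and 2.18 in ESCs with BMP-4 and with serum. The libraries were directional by the labels' protocols, but the use of strand in counting was not given in the sources used here, so reads of Msx1 and Msx1os cannot be told apart. With the FPKM of both genes summed, a choice made after their values were seen, the log2 difference was 1.09 after 1.5 h and 2.57 after 24 h. Msx2 shares its span with no other gene of the table.

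**Figure D1:**
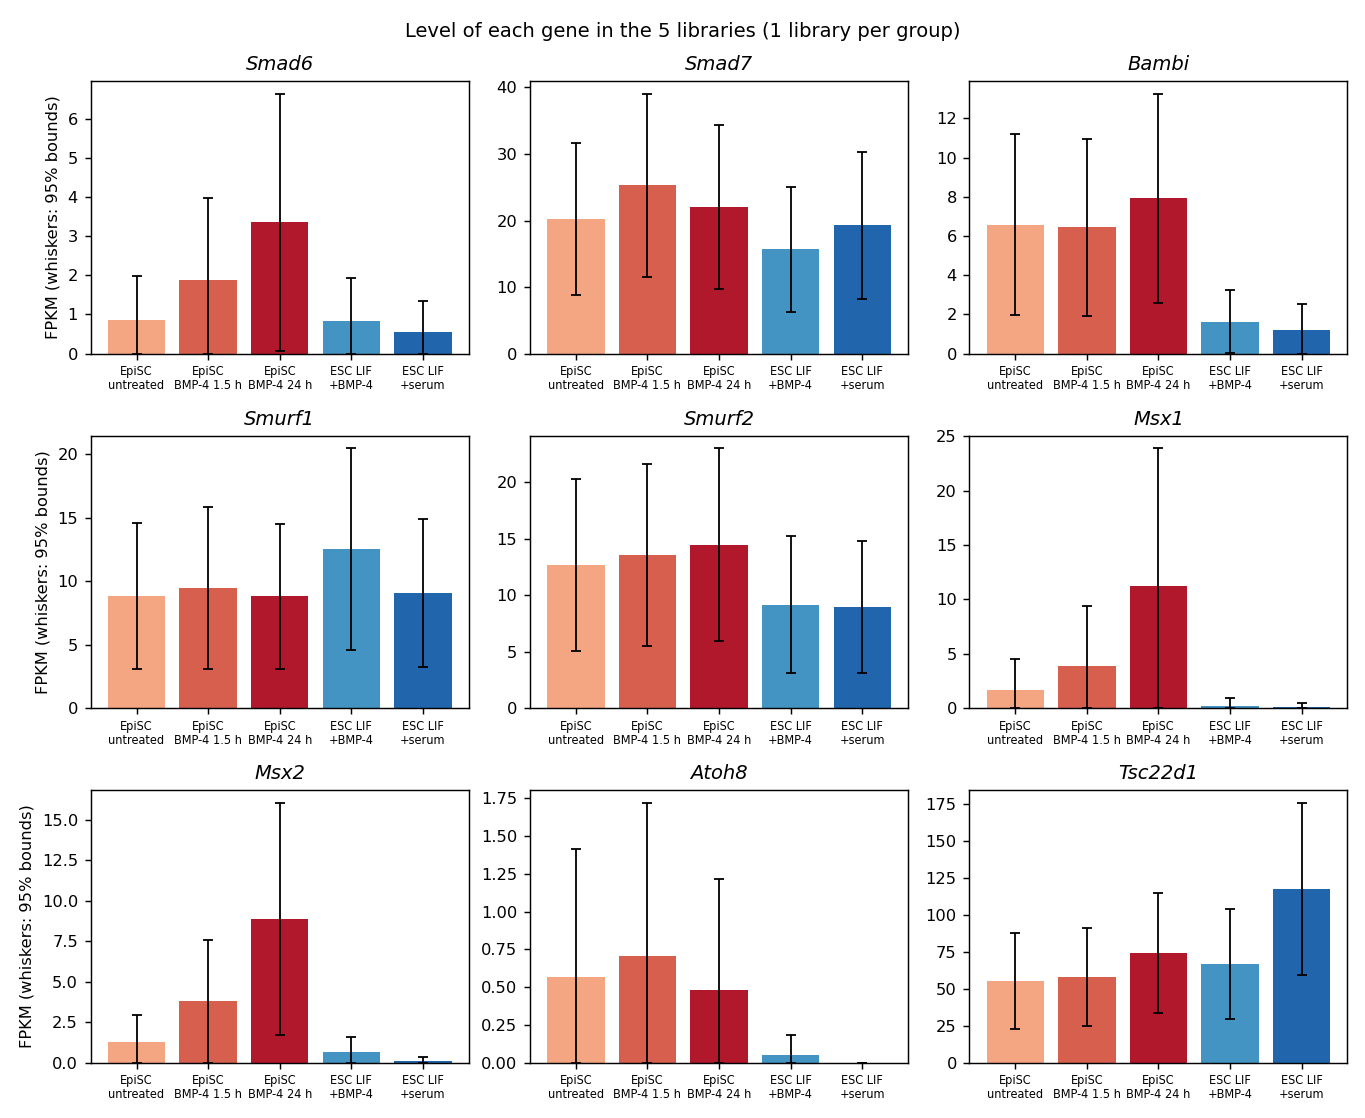
Level of each of the 9 genes in FPKM (vertical axes, each from 0) in the 5 libraries, with the deposited 95% bounds as whiskers; each bar is 1 library. Smad6, Msx1 and Msx2 are higher at each later BMP-4 time in EpiSCs (Msx2: 1.25, 3.79 and 8.88 FPKM), Bambi and Smurf2 are higher in EpiSCs than in ESCs at every time, and Tsc22d1 is highest in ESCs with serum (117 FPKM).

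**Figure D2:**
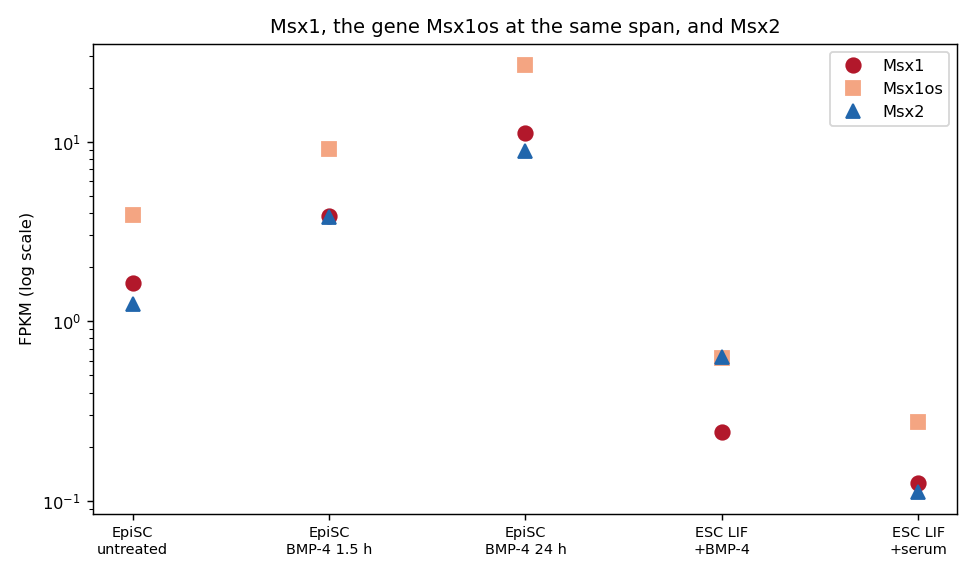
FPKM on a log axis of Msx1 (circles), Msx1os (squares) and Msx2 (triangles) in the 5 libraries, 1 point a library. Msx1os runs parallel to Msx1 at 2.18 to 2.61 times its value, and all 3 genes keep the same order of libraries, highest in EpiSCs after 24 h (11.2, 26.6 and 8.88 FPKM for Msx1, Msx1os and Msx2) and lowest in ESCs with serum (0.126, 0.274 and 0.111 FPKM).

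The remaining factors showed no comparable step. Atoh8 (chromosome 6, 72156172 to 72185571), a bHLH factor known as a BMP target in endothelial cells, measured 0.569 FPKM (0 to 1.41) in untreated EpiSCs, 0.705 (0 to 1.72) after 1.5 h and 0.483 (0 to 1.22) after 24 h. It stood at 0.0482 FPKM in ESCs with BMP-4, about 1 read, and was listed at 0 in ESCs with serum. With about 13 to 18 reads in each EpiSC library, a small difference was not detectable at this depth, and the gene enters no count of calls.

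Tsc22d1 (chromosome 14, 76815628 to 76907573), whose product is a leucine zipper protein linked to TGF-beta family responses, was the most abundant of the 9 genes in every library. It measured 55.1 FPKM (22.6 to 87.7) in untreated EpiSCs, 58.2 (24.9 to 91.4) after 1.5 h and 74.2 (33.8 to 115) after 24 h. ESCs had 66.6 FPKM (29.2 to 104) with BMP-4 and 117 (59.2 to 176) with serum. Its log2 difference from untreated EpiSCs was 0.08 after 1.5 h and 0.42 after 24 h, all within 2-fold and with overlapping bounds. The file joins 3 transcription start groups under this symbol, so short and long forms of the gene are summed.

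The timing in EpiSCs was compared next, at 1.5 h and 24 h against the same untreated library and then directly with each other. After 1.5 h, 1 of the 8 genes that passed the mean, Msx2, was higher and 0 were lower, where 0.236% of all 11007 genes compared were higher and 0.182% lower. With a pseudocount of 0.1 in place of 1 the count was 3, with Msx1 and Smad6 added, and with Msx1os summed into Msx1 it was 2. Ranked by difference among all genes, Msx2 came 23, Msx1 28, Smad6 57 and Smad7 371 of 11007 from the top, while Smurf2, Smurf1, Tsc22d1 and Bambi lay between ranks 2362 and 6430. After 24 h, 3 of the 8 were higher, Msx1, Msx2 and Smad6, and 0 lower, where 0.654% of all 11006 genes were higher and 0.527% lower. Msx1 ranked 22, Msx2 24 and Smad6 45 of 11006. These 3 passed the mean only through the treated libraries, so the count describes them and is no comparison with the background. Of the 5 genes that passed it without those libraries, 0 were higher or lower at either time. Among genes with a mean of 1 to 5 FPKM, the band of Smad6, Msx1, Msx2 and Bambi, 0.24% were higher and 0.24% lower after 1.5 h, and 1.14% higher and 0.749% lower after 24 h. No bounds of the 8 genes were apart at either time, beside 0.0273% of genes higher and 0% lower with bounds apart at 1.5 h, and 0.0545% higher and 0.0273% lower at 24 h.

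Set directly against 1.5 h, the 24 h library held 2 of the 8 genes higher, Msx1 and Msx2, and 0 lower, where 0.609% of 11007 genes were higher and 0.427% lower. Msx1 had a log2 difference of 1.33 (11.2 FPKM at 24 h and 3.86 at 1.5 h, rank 28) and Msx2 of 1.05 (8.88 FPKM at 24 h and 3.79 at 1.5 h, rank 58). Smad6 followed with 0.59, Tsc22d1 with 0.35 and Bambi with 0.26, all within 2-fold. Smad7 and Smurf1 were a little lower at 24 h, at -0.19 and -0.09. The bounds of all 8 overlapped between the times, where 0.0363% of genes were higher and 0.0182% lower with bounds apart. Msx1 and Msx2 passed the mean only through the treated libraries, so the count of 2 describes them and is no comparison with the background. Of the 5 genes that passed it without those libraries, 0 were higher or lower at 24 h than at 1.5 h.

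The Id genes, immediate targets that encode inhibitors of bHLH factors, were read at the same times. Id1 stood at 14.1 FPKM in untreated EpiSCs, 184 after 1.5 h and 199 after 24 h, Id3 at 28.0, 151 and 192, and Id2 at 17.3, 64.0 and 76.0 in the same order. Between 1.5 h and 24 h none of the 3 differed by 2-fold, with a median log2 difference of 0.24. Over all genes 0.609% were higher and 0.427% lower at 24 h than at 1.5 h, so a count of 0 is near the background. Id4, below the mean, stood at 0.259 FPKM in untreated EpiSCs, 0.174 after 1.5 h and 0.143 after 24 h. Id1 was 170 FPKM higher at 1.5 h than untreated and a further 14.6 FPKM higher at 24 h than at 1.5 h. The same steps in FPKM were 2.22 and 7.34 for Msx1, 2.54 and 5.09 for Msx2, and 1.04 and 1.46 for Smad6. Each step rests on 1 library at each end, and both share the 1.5 h library. Mesoderm markers T and Mesp1 summed to 11.9 FPKM in untreated EpiSCs, 10.9 after 1.5 h and 96.6 after 24 h, with Mesp1 listed at 0 in untreated EpiSCs, and their part in the levels of Msx1, Msx2 and Smad6 was not tested.

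**Figure D3:**
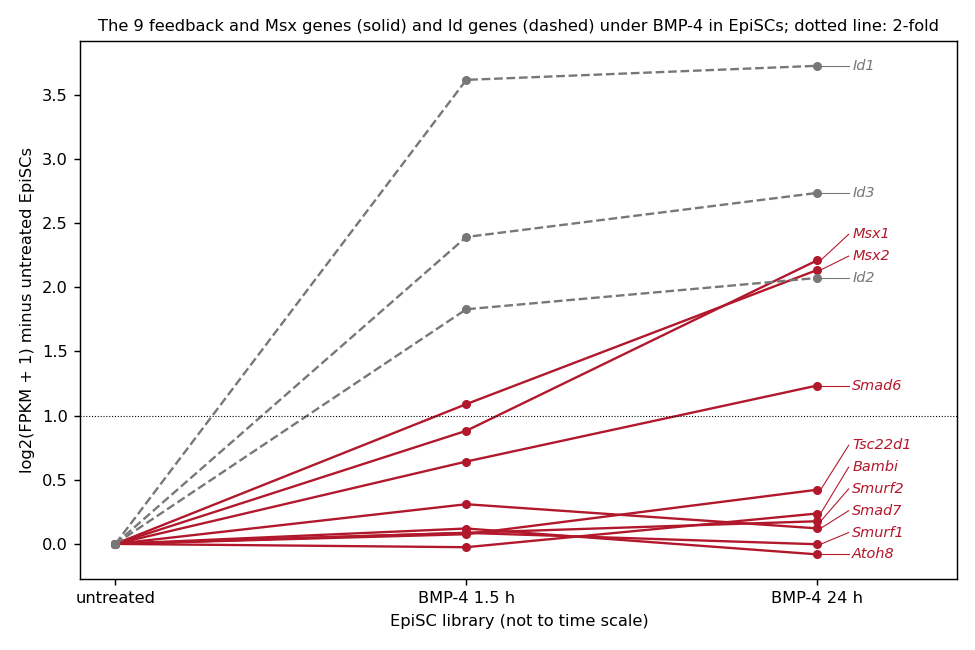
Difference of log2(FPKM + 1) from untreated EpiSCs (vertical axis) in the untreated, 1.5 h and 24 h libraries (horizontal axis, not to time scale) for the 9 genes (solid red) and Id1 to Id3 (dashed grey), 1 library a point, with the 2-fold line dotted. The Id genes differ little between 1.5 h and 24 h, Msx1 and Msx2 reach 2.21 and 2.13 at 24 h, Smad6 crosses the line at 24 h (1.23), and the other 6 genes stay below it.

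Untreated EpiSCs were then set against ESCs, to describe the genes in the primed and the naive state without added BMP-4 in the EpiSCs. Against ESCs in LIF and serum, 3 of the 8 genes were higher, Bambi (log2 difference 1.79), Msx1 (1.23) and Msx2 (1.02), and Tsc22d1 was lower (-1.08). Over all 11007 genes 11.6% were higher and 9.55% lower, so 2-fold differences between these states were common. Bambi held 6.57 FPKM in untreated EpiSCs and 1.19 in ESCs with serum, and Tsc22d1 held 55.1 FPKM in untreated EpiSCs and 117 in ESCs with serum. The bounds of all 8 genes overlapped, where 2.68% of genes were higher and 2.84% lower with bounds apart. Msx1 and Msx2 rest on about 2 reads each in ESCs with serum, so their fold is poorly fixed. Both passed the mean only through BMP-4-treated EpiSCs, so the count of 3 is no comparison with the background. Of the 3 genes higher, only Bambi passed it without those EpiSCs.

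Against ESCs in LIF and BMP-4, 2 of the 8 were higher in untreated EpiSCs, Bambi (1.53) and Msx1 (1.09), and 0 were lower, beside 11% and 10% of all genes. Msx1 passed the mean only through BMP-4-treated EpiSCs, so the count of 2 is no comparison with the background. It rests on about 4 reads in ESCs with BMP-4. Bounds of the 8 overlapped here too, where 2.39% of genes were higher and 3.11% lower with bounds apart. Tsc22d1 differed by -0.27 here, at 55.1 FPKM in untreated EpiSCs and 66.6 in ESCs with BMP-4. Smad6 was nearly level at 0.85 and 0.823 FPKM in the same order. Both comparisons share the untreated EpiSC library.

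With BMP-4 present in both states, EpiSCs after 24 h were compared with ESCs in LIF and BMP-4. Msx1 (log2 difference 3.30), Msx2 (2.59), Bambi (1.76) and Smad6 (1.26) were higher in the EpiSCs, 4 of the 8, and 0 were lower, where 11.3% of 11008 genes were higher and 10.1% lower. Msx2, at 8.88 FPKM (1.70 to 16.1) in EpiSCs after 24 h and 0.635 (0 to 1.58) in ESCs with BMP-4, was the 1 gene of the 8 with bounds apart, where 2.51% of all genes were higher and 3.11% lower with bounds apart. Msx1 ranked 67 and Msx2 153 of 11008 from the top. Smad6, Msx1 and Msx2 passed the mean only through the BMP-4-treated libraries, so the count of 4 is no comparison with the background. Of the 4, only Bambi passed it without those libraries. The libraries also differed in cell state, medium, LIF, FGF2 and Activin A and in the length of exposure to BMP-4, and these cannot be told apart.

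In ESCs, BMP-4 in basal medium was compared with serum. None of the 8 genes was 2-fold higher or lower, where 2.61% of 11010 genes were higher and 1.28% lower. With a pseudocount of 0.1, Msx2 alone was higher. Msx2 had the largest difference upward, 0.56, at 0.635 FPKM with BMP-4 and 0.111 with serum, or about 14 reads and 2. Tsc22d1 had the largest downward, -0.81, at 66.6 FPKM with BMP-4 and 117 with serum, which ranked 233 of 11010 from the bottom. Bounds overlapped for all 8, where 0.163% of genes were higher and 0.0363% lower with bounds apart. Smurf1 was at 0.43, Bambi at 0.26, Smad6 at 0.23 and Smad7 at -0.28. Change of medium and addition of BMP-4 cannot be told apart in this pair.

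**Figure D4:**
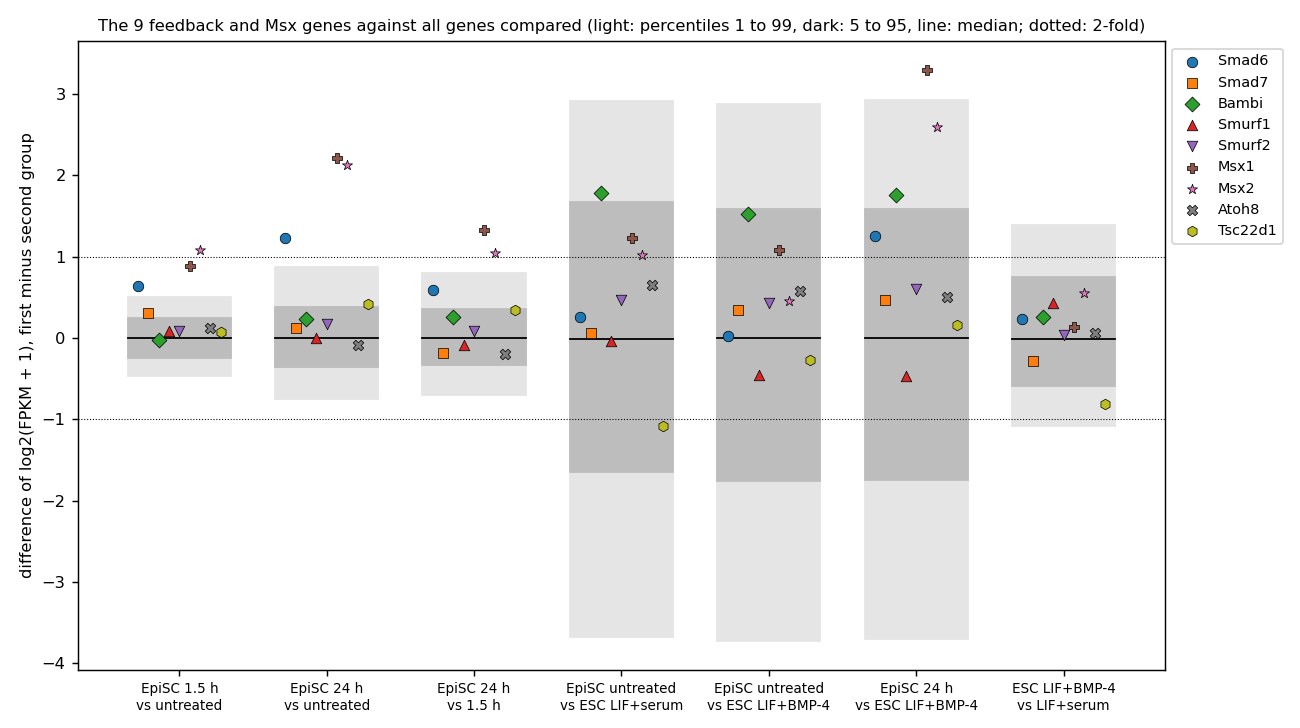
Difference of log2(FPKM + 1) of the 9 genes (symbols) in 7 comparisons, each named with the group on top first, over the spread of all genes compared (light boxes from the 1st to the 99th percentile, dark boxes from the 5th to the 95th, line at the median; dotted lines at 2-fold). Msx1, Msx2 and Smad6 lie beyond the light box in both comparisons of BMP-4-treated with untreated EpiSCs, and all 9 genes lie inside it in the ESC pair. Msx1, Msx2 and Smad6 passed the mean only through the treated libraries, so their place is a description and no comparison with the background.

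Other genes of the pathway were read from 7 lists of 62 genes, of which 47 passed the mean. All 20 listed intracellular inhibitors and Smad turnover genes passed it, and 0 of them were higher or lower at 1.5 h or at 24 h. Over all genes 0.236% were higher and 0.182% lower at 1.5 h, and 0.654% and 0.527% at 24 h, so counts of 0 in lists of this size are near the background. Among them the Smad corepressor gene Skil stood at 30.7 FPKM in untreated EpiSCs, 37.2 after 1.5 h and 43.2 after 24 h, and Pmepa1, a Smad-binding feedback gene of TGF-beta signalling, at 16.5, 15.9 and 14.6 FPKM in that order. Of the receptors and signalling Smads, 8 of 10 passed, and 0 were higher or lower at either time, again near the background. Acvr1, a type I receptor, stood at 5.97 FPKM untreated, 8.39 after 1.5 h and 7.34 after 24 h. Smad2 and Smad3, which carry Nodal and Activin signals, differed by less than 2-fold in all 7 comparisons.

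Of the secreted antagonists 5 of 12 passed the mean, with 0 higher or lower after 1.5 h and 2 lower after 24 h, where 0.527% of all genes were lower. Cer1, a BMP and Nodal antagonist, stood at 1.31 FPKM (0 to 3.10) after 24 h and 35.0 (13.2 to 56.8) in untreated EpiSCs, with bounds apart. Chrd, which encodes chordin, stood at 0.811 FPKM after 24 h and 3.64 in untreated EpiSCs, with overlapping bounds. Fst, for the Activin-binding follistatin, stood at 28.2 FPKM in untreated EpiSCs, 21.3 after 1.5 h and 57.2 after 24 h. The 24 h value was 2.61-fold that of 1.5 h on the FPKM + 1 scale and 1.99-fold that of untreated EpiSCs, under the line, with overlapping bounds in both pairs. Below the mean, Nog stood at 0.164, 0.392 and 0.887 FPKM and Bmper at 0.235, 0.701 and 2.02 FPKM in the EpiSC libraries in order of time.

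Among BMP-responsive transcription factors, 6 of 11 passed the mean, with 0 higher at 1.5 h and 3 higher at 24 h, Cdx2, Tbx3 and Gata2, where 0.654% of all genes were higher at 24 h. Cdx2 and Gata2 passed the mean only through the treated libraries, so the count of 3 is no comparison with the background. Cdx2, a caudal homeobox gene, stood at 1.55 FPKM in untreated EpiSCs, 1.48 after 1.5 h and 13.7 after 24 h. Gata2 stood at 0.495, 1.52 and 2.00 FPKM in the same libraries. Gata3, below the mean, was at 0.156, 0.503 and 0.873 FPKM. Tbx3, also a naive ESC marker, stood at 0.0636 FPKM in untreated EpiSCs, 0.294 after 1.5 h and 1.86 after 24 h, against 24.3 FPKM in ESCs with BMP-4 and 30.6 with serum.

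**Figure D5:**
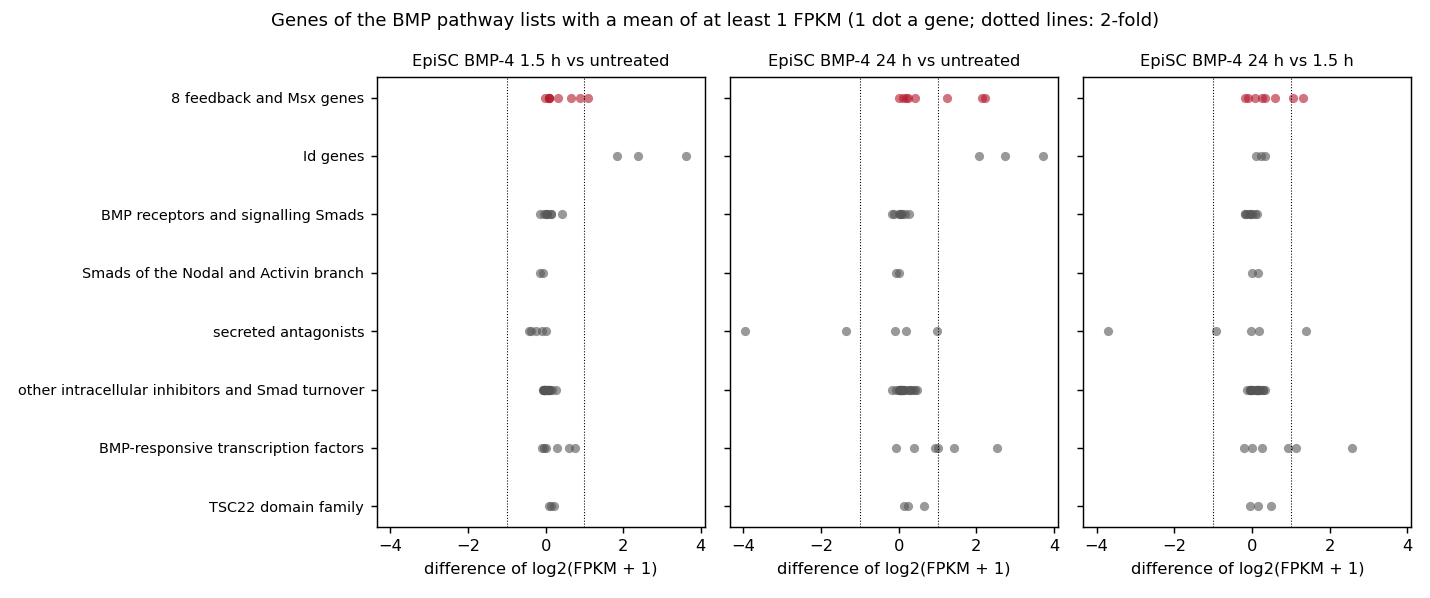
Difference of log2(FPKM + 1) for each gene with a mean of at least 1 FPKM in the 7 pathway lists (grey) and for 8 feedback and Msx genes (red), in the 3 comparisons among EpiSC libraries; 1 dot a gene, dotted lines at 2-fold. Against untreated EpiSCs, Id genes and Msx2 are past the line at 1.5 h and 24 h, and Msx1 and Smad6 at 24 h. Also past it at 24 h are Cdx2, Tbx3 and Gata2 upward, and Cer1 (-3.96) and Chrd (-1.36) downward. Receptors, signalling Smads and the 20 other intracellular inhibitors lie within it in all 3 panels. Msx1, Msx2, Smad6, Cdx2 and Gata2 passed the mean only through the treated libraries, so their place is a description and no comparison with the background.

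Genes with the most similar profile over the 5 libraries were sought among 10467 genes for the 5 members whose log2(FPKM + 1) spanned at least 1, by the root mean square distance of centred values. For Msx1 the nearest was Msx2 (distance 0.24, Pearson r 0.99 over 5 libraries), followed by the Wnt ligand gene Wnt5b (0.37) and Rftn1 (0.38). For Msx2, Msx1 was the nearest, then Tmem176b (0.30) and the ephrin gene Efna1 (0.36). Smad6 was nearest to the ephrin gene Efnb1 (0.16), which stood at 3.17, 3.94 and 7.59 FPKM over the EpiSC times, and to Psme2 and Man1c1. Bambi was nearest to Gnas (0.05), Pkia and Clcn4-2, all with every EpiSC value above both ESC values. Tsc22d1 was nearest to Kirrel (0.10), Tmem120b and Nxt2, each highest in ESCs with serum. With 5 points shared by every gene, these distances describe the libraries and carry no test.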

How the data were processed

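The authors deposited FPKM per gene with lower and upper 95% bounds for 5 libraries, made with TopHat and Cufflinks on mm9, with Picard and SAMtools also named, per the submitters' processing notes. The annotation, filters, scaling between libraries and use of strand were not given in the sources used here. Starts were raised by 1 to count from 1. A pseudocount of 1 was added before log2, and genes averaging 1 FPKM or more with an OK status in both libraries of a pair were compared; 8 genes lacked OK in some library. No test was run, since each group held 1 library. How often a call at low FPKM would be wrong was not tested.

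Depth came from the most frequent ratios of values below 0.5 FPKM. Its scale came from 600 low genes with 1 transcript over 1500 nt (GENCODE M21), of which 23.5% lay within 0.03 of a whole number of reads, so depths and read numbers are approximate, and intervals from them are not given.

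The members, the 7 lists and the comparisons were chosen with earlier results of these data known. Named genes were the 9 members, list genes at least 2-fold apart between EpiSC libraries, and the 3 nearest genes in profile. Nearest genes were sought for each member whose log2 values spanned at least 1. Smad2, Smad3 and the TSC22 family were named as well. Most list genes 2-fold apart only between EpiSCs and ESCs were not named. Skil, Pmepa1, Acvr1, Nog, Bmper and Gata3 were added after their values were seen. Python 3.11.15, numpy 2.4.6 and pandas 2.3.3 were used.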

Additional observations from a re-analysis of the deposited data

How the results depend on the processing

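No paired analysis was possible because every condition came as 1 library. With a pseudocount of 0.1 in place of 1, the count of genes higher after 1.5 h against untreated EpiSCs was 3 (Msx2, Msx1 and Smad6) in place of 1, and the count higher in ESCs with BMP-4 against serum was 1 (Msx2) in place of 0. With Msx1os added to Msx1, chosen after seeing the data, the count after 1.5 h was 2 in place of 1. These follow from the construction, since a smaller pseudocount or a larger sum widens the difference of low genes. All other counts were within 1.5 times under these settings, without the filter on the mean, and after centring on the median gene. Of 63 single differences, 9 moved with the smaller pseudocount, all of Msx1, Msx2 or Atoh8, and 0 changed sign. Msx1 was then 5.05 for EpiSCs after 24 h against ESCs with BMP-4 (3.30 before), and for untreated EpiSCs against ESCs with serum Msx1 was 2.94 (1.23 before) and Msx2 2.68 (1.02 before). For Msx1 and Smad6, whether they count as higher at 1.5 h depends on the pseudocount, and values below 1 FPKM rest on few reads.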

Other observations

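Tsc22d3, a glucocorticoid-induced relative of Tsc22d1, stood at 3.97 FPKM in untreated EpiSCs, 4.50 after 1.5 h and 6.77 after 24 h, against 1.03 FPKM in ESCs with BMP-4 and 0.66 with serum. In untreated EpiSCs it was 3.00-fold higher on the FPKM + 1 scale than in ESCs with serum, the opposite direction to Tsc22d1, with overlapping bounds. Tsc22d2 and Tsc22d4 lay within 2-fold in all 7 comparisons.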
